A study of Mus musculus with 32 samples.

Results

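The effect of deleting Gpr146 was compared between epididymal white adipose tissue (eWAT), a visceral fat depot, and inguinal white adipose tissue (iWAT), a subcutaneous depot. The comparison used the 16 arrays of these depots among the 32 arrays of the series, chosen by tissue: 8 eWAT and 8 iWAT arrays from 4 Gpr146+/+ (WT) and 4 Gpr146-/- (KO) mice. All mice were C57BL/6J males from crosses of heterozygotes, were 20 weeks of age, had received a high-fat diet (HFD) over 3 months and were fasted overnight. The deletion was present in the whole body from the germline on, and each array held RNA of the whole depot, so an effect in a depot is not assigned to a cell type. Fewer cells of a type and less RNA per cell cannot be told apart in such samples. In each depot the effect on a gene was the mean of the KO mice minus the mean of the WT mice, in log2 array units, and 24646 genes were measured in both depots. The difference of the effects is the eWAT effect minus the iWAT effect, and the average effect is the mean of both. The labels number the mice alike in both depots, so both arrays of a number were taken as 1 mouse and the tests ran over 8 mice. Groups are called separated where all 4 KO mice lay above, or all 4 lay below, the 4 WT mice.

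GPR146 is an orphan G protein-coupled receptor. In diet-induced obesity, visceral fat of male mice gathers macrophages around dying adipocytes, and a lipid-associated macrophage state with high Trem2, Cd9 and lysosomal gene expression is typical of such tissue, whereas inguinal fat is less inflamed, forms thermogenic (beige) adipocytes more readily and encloses a lymph node. Genes for lipogenesis and branched-chain amino acid breakdown are commonly lower in adipocytes of obese animals.

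KO mouse 2 stood apart from the other KO mice. Its eWAT array correlated at 0.988 to 0.992 with the WT arrays and at 0.977 to 0.979 with the other KO arrays, whereas those correlated at 0.960 to 0.968 with the WT arrays, although its Gpr146 value was the lowest of all 8 mice in both depots. Values with and without this mouse are therefore given. The mean of 11 B cell markers in iWAT was 7.90, 7.87, 3.40 and 3.34 in WT mice 1 to 4 and 3.62, 7.54, 3.52 and 5.76 in KO mice 1 to 4, against 2.80 to 4.03 in eWAT, and T cell and lymph node stroma markers were also highest in iWAT of WT mice 1 and 2 and KO mouse 2. Mesothelial and subcutaneous markers matched the depot labels. The mean of 6 mesothelial markers, of the layer that covers visceral fat, was 4.38 to 6.07 in eWAT and 2.63 to 3.09 in iWAT. The 4 subcutaneous patterning genes averaged 2.43 to 2.63 in eWAT and 3.47 to 4.04 in iWAT. The 4 visceral patterning genes did not tell the depots apart in WT mice, at 4.75 to 5.03 in eWAT and 4.72 to 4.82 in iWAT. In KO mice they averaged 5.07 to 5.27 and 4.82 to 4.97. Skeletal muscle markers were highest in iWAT of WT mouse 4 (mean 4.52, other iWAT arrays 3.11 to 3.49). Epididymis and testis markers were highest in iWAT of KO mouse 4 (4.07, other iWAT arrays 2.75 to 3.31, eWAT arrays 2.32 to 2.57). Levels are set side by side across depots with the limit that the tables were normalized separately, with array medians of 3.13 to 3.18 in eWAT and 3.65 to 3.73 in iWAT.

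The targeted gene was lower by a similar amount in both depots. Gpr146 read 5.32, 5.84, 5.53 and 6.05 in eWAT of WT mice 1 to 4 and 4.63, 3.63, 4.04 and 4.33 in KO mice 1 to 4. In iWAT it read 5.37, 5.59, 6.58 and 6.37 in WT mice and 4.45, 3.82, 5.10 and 4.31 in KO mice. The groups were separated in both depots, the average effect was -1.54 (adjusted p = 0.0164) and the difference of the effects was 0.03 (95% interval -0.70 to 0.75). C130050O18Rik, which lies next to Gpr146 on chromosome 5, read 7.0 to 7.89 in eWAT and 7.68 to 7.96 in iWAT of the KO mice, and its average effect was 3.07 (adjusted p = 0.0187) with a difference of -0.02 (95% interval -0.48 to 0.44). WT mice 2 to 4 read 3.47 to 4.12 in eWAT and 3.74 to 4.29 in iWAT for this gene, but WT mouse 1 read 6.45 in eWAT and 6.98 in iWAT, close to the KO mice in both depots, with the lowest Gpr146 value of the WT mice in both.

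Effects mostly had the same direction in both depots and spread more widely in eWAT. In eWAT 1126 genes were higher in KO mice (4.57% of genes tested) and 2632 were lower (10.7%) at an adjusted p under 0.05. In iWAT alone no gene passed (0%), with a smallest adjusted p of 0.221 in limma, while 3803 genes had an unadjusted p under 0.05 and the methods' t-test called 1 gene after adjustment, Zfp282, named for that reason. Without WT mouse 1, whose C130050O18Rik value lay with the KO mice, 2300 genes passed in eWAT and 3 in iWAT (C130050O18Rik, Lipf and Unc79). The average over both depots rose for 884 genes (3.59%) and fell for 1970 (7.99%). P-values measure the spread between these mice only. These calls had adjusted p-values no smaller than 0.00821 and their count depended on each mouse: it was 1164 without WT mouse 1, 564 without WT mouse 2, 1459 without WT mouse 3, 2 without WT mouse 4, 9 without KO mouse 1, 5962 without KO mouse 2, 410 without KO mouse 3 and 1436 without KO mouse 4. The split between rises and falls depended on the scaling: with quantile normalization 1247 genes rose and 1257 fell on average, and 1830 rose and 1910 fell in eWAT. Of the 3758 genes called in eWAT, 3370 (89.7%) had an effect of the same sign in iWAT, against 71.1% of all genes. Over all genes the standard deviation of the effect was 0.41 in eWAT and 0.30 in iWAT, and the effects correlated at 0.62 across genes (0.59 without KO mouse 2), which is a description, since genes are not replicates and both effects come from the same mice.

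**Figure D1:**
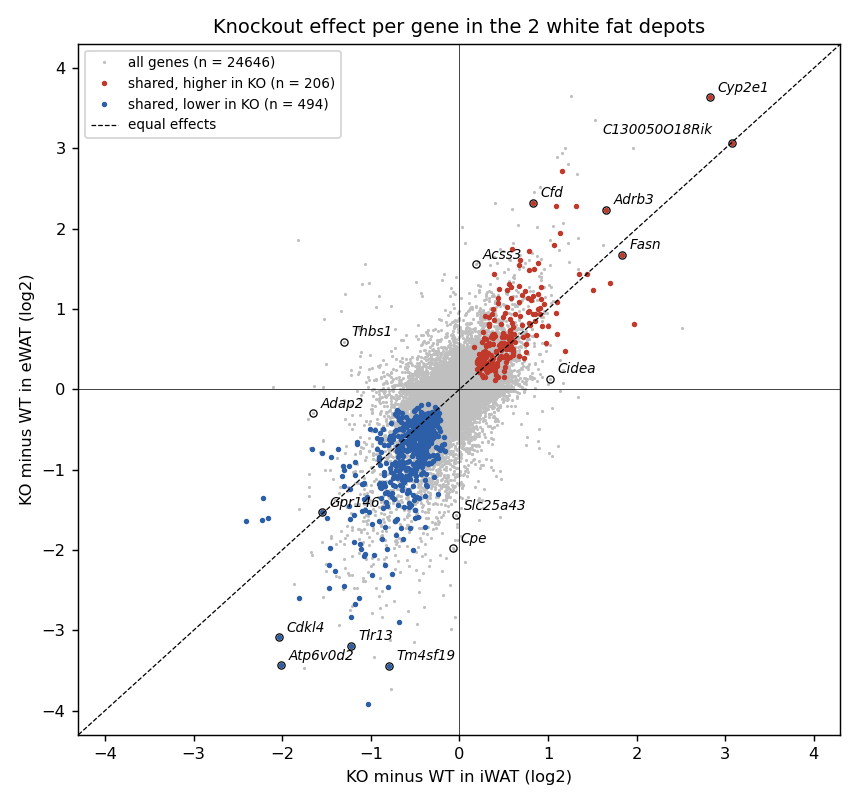
Effect of the knockout in iWAT (horizontal axis, log2) and in eWAT (vertical axis, log2) for each of 24646 genes, with the 206 genes higher and the 494 genes lower in KO mice in both depots in colour and the line of equal effects dashed. Most coloured points lie farther from 0 on the eWAT axis than on the iWAT axis (139 of the 206 higher and 367 of the 494 lower genes), and Fasn, Gpr146 and C130050O18Rik lie close to the line.

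A gene was counted as shared where the average effect passed the test and the groups were separated the same way in both depots. By this rule 206 genes were higher (0.836% of genes tested) and 494 were lower (2%) in KO mice of both depots, and 699 of these 700 genes also passed the average test without KO mouse 2. As that test called 2 genes in all without WT mouse 4, 9 without KO mouse 1 and 0 with a trended and robust prior, nearly all of the 700 lost their call there. Separation alone held for 246 higher and 525 lower genes (3.13% of genes together), and with quantile normalization for 352 higher and 306 lower genes. The median effect of the shared rises was 0.59 in eWAT and 0.49 in iWAT, and that of the shared falls was -0.69 in eWAT and -0.52 in iWAT. The eWAT effect was the larger one for 139 of 206 rises and 367 of 494 falls.

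The 6 shared falls of largest average size, olfactory receptors and predicted genes aside, included several genes of macrophages. Atp6v0d2, a subunit of the lysosomal proton pump typical of lipid-laden macrophages and osteoclasts, read 10.05, 10.11, 10.21 and 10.10 in eWAT of WT mice 1 to 4 and 5.03, 9.42, 7.13 and 5.16 in KO mice 1 to 4. In iWAT it read 5.64, 5.13, 5.26 and 6.91 in WT mice and 3.19, 3.28, 4.87 and 3.56 in KO mice. The WT mice lay close to each other in eWAT, KO mouse 2 lay closest to them there, and the groups did not overlap in either depot. Its effect was -3.44 in eWAT and -2.01 in iWAT, with an average of -2.72 (adjusted p = 0.0172). Tlr13, an endosomal receptor for bacterial ribosomal RNA, fell by 2.21 on average (adjusted p = 0.0224), from 7.26 to 7.48 in eWAT of WT mice to 2.78, 6.83, 3.99 and 3.24 in KO mice, and from 4.01 to 5.14 in iWAT of WT mice to 2.65 to 3.68. The eWAT values of KO mice 1, 3 and 4 were below all iWAT values of the WT mice, and KO mouse 2 was the nearest to the WT mice in both depots. Igsf6, an immunoglobulin-family membrane protein of myeloid cells, Cd200r1, an inhibitory receptor of myeloid cells, Tm4sf19, a tetraspan membrane protein, and Cdkl4, a kinase, were the others, with average effects of -2.20, -2.03, -2.12 and -2.56. Lep, which encodes the satiety hormone leptin made by adipocytes in proportion to fat mass, read 10.07 to 10.28 in eWAT and 9.70 to 10.37 in iWAT of WT mice. In KO mice it read 8.74 to 9.60 in eWAT and 9.07 to 9.53 in iWAT. The groups did not overlap in either depot, and the effects of -0.98 and -0.78 differed by -0.20 (95% interval -0.88 to 0.47).

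The 6 shared rises of largest average size, small nucleolar RNAs and predicted genes aside, included genes that adipocytes use for lipid synthesis, lipolysis and secretion. Cyp2e1, a cytochrome P450 of fat and liver, read 8.27, 5.42, 8.75 and 6.27 in eWAT of WT mice 1 to 4 and 11.07, 10.06, 10.73 and 11.41 in KO mice. In iWAT the WT mice read 8.16, 5.44, 9.38 and 7.77 and the KO mice 10.76, 10.32, 10.76 and 10.23. The WT mice spread widely and stood in the same order in both depots, with mouse 2 the lowest, and the KO mice lay closer together and above all of them. The average effect was 3.24 (adjusted p = 0.0204). Adrb3, the beta-3 adrenergic receptor through which noradrenaline drives lipolysis in adipocytes, rose by 1.95 on average (adjusted p = 0.0164), with effects of 2.24 in eWAT and 1.66 in iWAT. Fasn, the fatty acid synthase, read 6.44 to 8.04 in eWAT of WT mice and 8.42 to 9.76 in KO mice, and 6.91 to 7.53 in iWAT of WT mice and 8.36 to 9.56 in KO mice. Its effects of 1.67 and 1.84 differed by -0.16 (95% interval -1.09 to 0.76). Ces1f, a carboxylesterase, and Klf15, a transcription factor of nutrient metabolism, rose by 1.80 and 1.54 on average, and Cfd, described below, by 1.58.

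**Figure D2:**
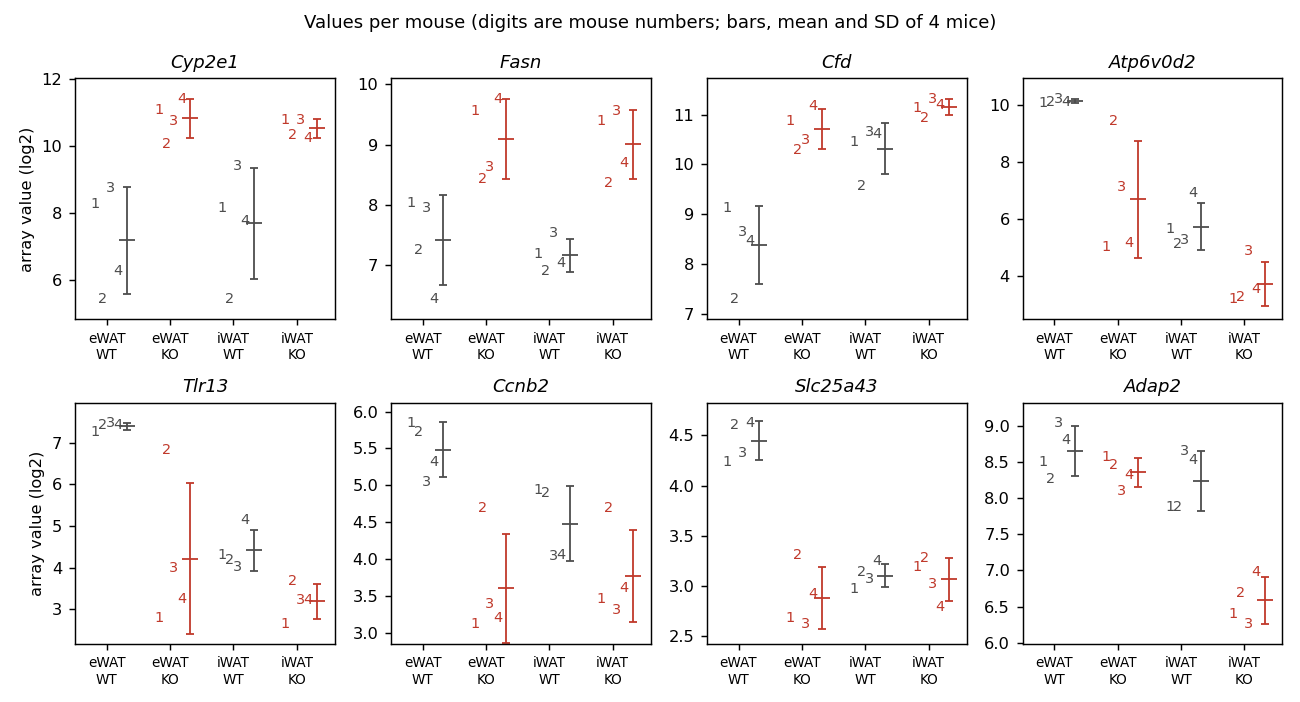
Array values (log2, vertical axes) of 8 genes in each depot and genotype. Digits are the mouse numbers within a genotype, placed left to right in order of number, and the bars give mean and SD of 4 mice. Atp6v0d2, Tlr13 and Fasn are separated in both depots, Slc25a43 in eWAT only and Adap2 in iWAT only, and KO mouse 2 is the KO mouse nearest to the WT mice in eWAT for Atp6v0d2, Tlr13, Ccnb2 and Slc25a43.

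No gene passed the test of the difference between the depots with all 8 mice (0%). The smallest adjusted p in limma was 0.0842, shared by 17 genes, and 2651 genes had an unadjusted p under 0.05, of which 1081 were positive and 1570 negative. The methods' t-test called 2 genes after adjustment, named for that reason: Aldh18a1, an enzyme of proline synthesis, with effects of -1.21 in eWAT and -0.47 in iWAT, and Cep55, a protein of cytokinesis, with -0.99 and -0.24. The 95% interval of a difference, not adjusted for the number of genes, reached a median of 0.38 to either side. The adjusted test was stricter: differences as large as -1.90 (Cpe) and -1.53 (Slc25a43) did not pass it. The per-mouse difference was separated upwards for 633 genes (2.57%) and downwards for 840 (3.41%). Without KO mouse 2 the test called 401 genes, 68 positive (0.276%) and 333 negative (1.35%). Of these 401 genes 378 had the larger effect in eWAT and 23 in iWAT, 115 had effects of opposite sign, and 218 were separated with all 8 mice. Leaving out any other mouse gave 0 calls. The genes described next had the smallest p in each direction and did not pass the threshold with all 8 mice as units. That outcome depended on the form of the fit. With all 16 arrays in 1 fit, 6 genes passed without a replicate block and 6 with the mouse as a random block. Slc25a43, Cdk15 and Pcp4l1 were among them in both fits. The correlation between the arrays of a mouse was 0.0841 in the fit with the block. Each of the 12 genes described next passed the threshold without KO mouse 2, at adjusted p-values of 0.00555 to 0.0250. That mouse was singled out because its eWAT array resembled the WT arrays, and the genes were picked from the same mice. Passes without it, here and below, are therefore not independent support.

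The 6 negative differences with the smallest p all came from falls in eWAT. In iWAT all values of Slc25a43 and Cdk15 lay below the array medians of 3.65 to 3.73, and Pcp4l1 read 3.72 to 4.02. Near this lower end of the scale a fall in iWAT could hardly be measured, so for these genes an effect confined to eWAT is not shown. Slc25a43, a member of the mitochondrial carrier family, read 4.24, 4.61, 4.33 and 4.63 in eWAT of WT mice 1 to 4 and 2.68, 3.31, 2.62 and 2.92 in KO mice. In iWAT the WT mice read 2.97 to 3.24 and the KO mice 2.79 to 3.27. The groups overlapped in iWAT and were separated in eWAT, and the difference was -1.53 (95% interval -1.90 to -1.16, adjusted p = 0.0842). Cpe, carboxypeptidase E, which processes prohormones, read 7.0 to 7.23 in eWAT of WT mice and 4.96, 6.03, 4.63 and 4.77 in KO mice 1 to 4, but 4.92 to 5.86 and 4.75 to 5.90 in iWAT. Its difference was -1.90 (95% interval -2.5 to -1.30). Galns, a lysosomal sulfatase that degrades keratan and chondroitin sulfate, had effects of -1.65 in eWAT and -0.23 in iWAT, and Pcp4l1 had effects of -1.06 and 0.05. Cdk15, a kinase of the cyclin-dependent family, read 3.59 to 3.67 in eWAT of WT mice and 2.39 to 2.55 in KO mice, KO mouse 2 included, against 2.42 to 2.99 and 2.64 to 2.79 in iWAT. Ccnb2, cyclin B2 of the mitotic cyclin-dependent kinase, had effects of -1.88 and -0.71. For each of these 6 genes the eWAT values of KO mice 1, 3 and 4 came down to, or below, the range of the iWAT values.

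Of the 6 positive differences with the smallest p, 5 came from rises in eWAT and 1 from low values in iWAT. Cxcl9, a chemokine induced by interferon-gamma, read 7.39, 7.43, 7.66 and 7.79 in eWAT of WT mice 1 to 4 and 8.81, 8.44, 8.58 and 9.20 in KO mice. In iWAT it read 9.04 to 9.56 in WT mice and 8.99 to 9.23 in KO mice. The eWAT groups were separated and the iWAT groups overlapped, and the difference was 1.23 (95% interval 0.87 to 1.60, adjusted p = 0.0842). Acss3, a mitochondrial short-chain acyl-CoA synthetase, had effects of 1.56 in eWAT and 0.19 in iWAT, Art3, an ADP-ribosyltransferase family member, 1.65 and 0.38, Fmo5, a flavin-containing monooxygenase, 0.98 and 0.10, and Rnf125, a ubiquitin ligase, 0.98 and -0.00. Adap2, a GTPase-activating protein that binds phosphoinositides, was the exception. It read 8.26 to 9.04 in eWAT of WT mice and 8.09 to 8.56 in KO mice, but 7.88, 7.88, 8.65 and 8.53 in iWAT of WT mice 1 to 4 and 6.4, 6.69, 6.26 and 6.98 in KO mice. The groups overlapped in eWAT and were separated in iWAT, with all 4 KO mice low, and the difference was 1.36 (95% interval 0.96 to 1.76, adjusted p = 0.0842).

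**Figure D3:**
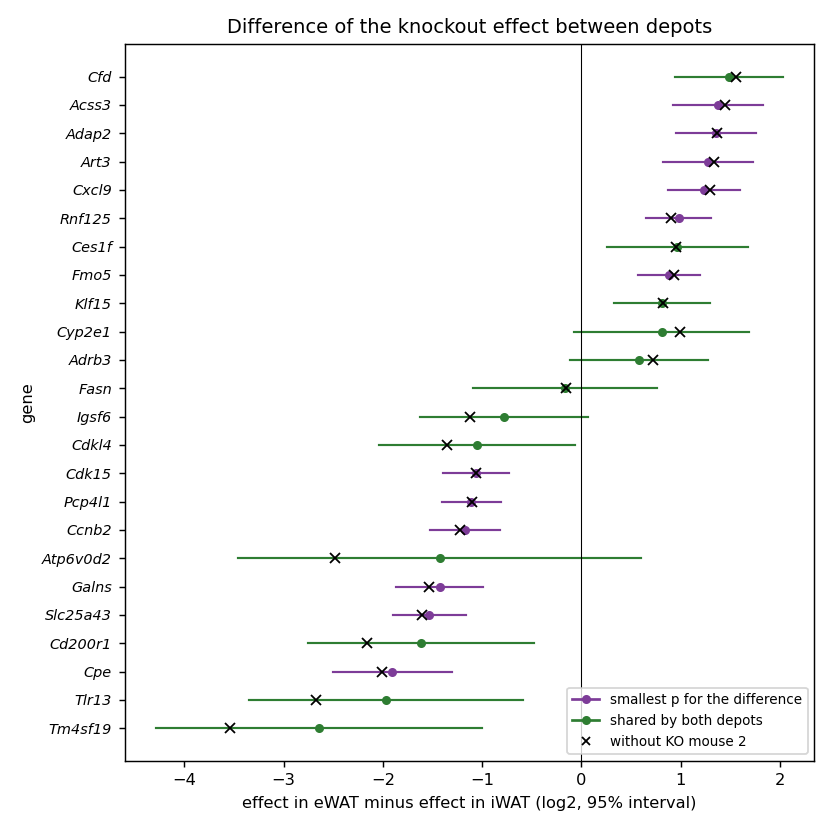
Difference between the knockout effect in eWAT and in iWAT (log2, horizontal axis) for the 12 genes with the smallest p for this difference and the 12 shared genes of largest average effect. Points and lines give the difference and its 95% interval over 8 mice, not adjusted for the number of genes, and crosses the difference without KO mouse 2. Intervals of Cpe, Slc25a43 and Adap2 leave out 0, those of Fasn and Atp6v0d2 cover it, and the crosses of Atp6v0d2, Tlr13 and Tm4sf19 lie well to the left of their points.

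Cfd was a shared rise with a larger effect in eWAT, though its difference did not pass the threshold. It encodes adipsin, the complement factor D made by adipocytes, and is low in obese mice. In eWAT it read 9.13, 7.29, 8.64 and 8.46 in WT mice 1 to 4 and 10.87, 10.28, 10.48 and 11.18 in KO mice. In iWAT it read 10.46, 9.56, 10.64 and 10.61 in WT mice and 11.14, 10.94, 11.32 and 11.20 in KO mice. The groups were separated in both depots, the KO mice in eWAT reached values near those of the WT mice in iWAT, and the effects of 2.32 and 0.83 differed by 1.49 (95% interval 0.95 to 2.03, adjusted p = 0.0957). Retn, which encodes resistin, had effects of 1.32 and 0.56, separated in both depots, with a difference of 0.75 (95% interval 0.28 to 1.23, adjusted p = 0.224). Adipoq, the gene of adiponectin, had an effect of 0.51 in eWAT (adjusted p = 0.0144) and 0.03 in iWAT, and its average did not pass (adjusted p = 0.103). Pparg, the adipocyte master transcription factor, had effects of 0.61 and 0.10, and Fabp4, the adipocyte fatty acid binding protein, 0.24 and 0.06. Both rose in eWAT and neither passed on average. Cd36, a fatty acid transporter, had effects of 0.01 and -0.04. In the adipocyte identity list as a whole, the median effect was 0.84 in eWAT and 0.39 in iWAT over 14 genes, against 0.03 and 0.02 over all genes. The average rose for 7 and fell for 1 of the 14, Lep being the fall, 11 rose in eWAT, and the difference was positive for 12. Over all genes 3.59% rose and 7.99% fell on average, and 4.57% rose and 10.7% fell in eWAT. These shares also apply to the lists below.

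Genes of branched-chain amino acid breakdown, a pathway that adipocytes use to feed acetyl-CoA into lipid synthesis, rose on average for 14 of 17 members. All 17 had positive effects in eWAT and in iWAT, with medians of 0.94 and 0.44. In eWAT 15 passed, and 6 were shared by the rule above. Over all genes 4.57% rose in eWAT, 3.59% rose on average, 0.836% were shared rises and none passed in iWAT. All 17 differences were positive, with a median of 0.33 that stayed between 0.21 and 0.52 when each mouse was left out. Bckdha, a subunit of the rate-limiting branched-chain keto acid dehydrogenase, read 6.03 to 6.4 in eWAT of WT mice and 7.03 to 7.65 in KO mice, and 6.12 to 6.99 in iWAT of WT mice and 6.99 to 7.64 in KO mice. The groups were separated in both depots, narrowly in iWAT, and the average effect was 1.04 (adjusted p = 0.0164). Bckdhb, its partner subunit, had the largest difference of the list, 0.68 (adjusted p = 0.192), from effects of 1.10 and 0.42. In triglyceride synthesis and lipolysis the median effect was 0.63 in eWAT and 0.24 in iWAT over 13 genes, and the average rose for 5. Gpam, the first enzyme of glycerolipid synthesis, had effects of 1.72 and 0.49. In de novo lipogenesis the medians were 0.54 and 0.43 over 14 genes, with a rise on average for 6, among them Fasn, Acaca and Srebf1, and a fall for 1, Elovl6. Srebf1, a transcription factor of lipogenesis, and Thrsp, a lipogenic regulator, had the larger effect in iWAT (1.02 and 1.51, against 0.55 and 1.24 in eWAT).

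With all 8 mice, the median effect in the lists of mitochondrial oxidation was small in both depots and no smaller in iWAT. For respiratory complex I the median effect was 0.23 in eWAT and 0.25 in iWAT over 35 genes, for complexes II to V 0.17 and 0.29 over 41, for the TCA cycle 0.26 and 0.32 over 17, and for mitochondrial fatty acid oxidation 0.25 and 0.30 over 18. Of the 111 genes, 89 had positive effects in eWAT and 104 in iWAT. Over these 4 lists the average rose for 36 and fell for 1, and the difference was negative for 76. The median difference of complexes II to V was -0.17, and it stayed between -0.24 and -0.10 when each mouse was left out. That of the other lists changed sign, at -0.11 to 0.09 for complex I, -0.16 to 0.09 for the TCA cycle and -0.21 to 0.01 for fatty acid oxidation. Over the 4 mice with the least B cell marker signal in iWAT, complex I had medians of 0.28 in eWAT and 0.17 in iWAT. The other lists kept the larger median in iWAT there. Cox8b, a subunit of cytochrome c oxidase found in brown and beige adipocytes and in muscle, had the largest difference of these lists. Its array values were 3.53, 2.79, 3.48 and 3.11 in eWAT of WT mice 1 to 4 and 3.56, 3.83, 3.18 and 5.41 in KO mice, and in iWAT 5.34, 3.61, 5.30 and 4.64 in WT mice and 7.21, 6.28, 7.71 and 7.75 in KO mice. The eWAT groups overlapped, with KO mouse 4 above the rest, and the iWAT groups were separated. Its effects were 0.77 and 2.51, with a difference of -1.74 (95% interval -2.77 to -0.72, adjusted p = 0.193). Cpt1a, the carnitine palmitoyltransferase that admits fatty acids to mitochondria, was the fall, by 1.05 on average (adjusted p = 0.0222).

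Genes of thermogenesis, creatine cycling and calcium cycling showed no common direction. Ucp1, the uncoupling protein of brown and beige fat, had effects of -0.13 in eWAT and -0.56 in iWAT, Dio2, the deiodinase that activates thyroid hormone, 0.17 and 0.13, and Prdm16, a regulator of beige identity, 0.19 and 0.34. The creatine kinases Ckmt1 and Ckmt2 had effects of -0.02 and 0.07 in eWAT and 0.27 and -0.11 in iWAT. Of the calcium cycling genes, Atp2a2 had effects of -0.04 and 0.08, Ryr1 -0.00 and -0.04, and Ryr2 -0.31 and -0.33. None of these 8 genes passed the test of the average or of the difference, and the 95% interval of the difference was -0.45 to 1.31 for Ucp1. In eWAT all of them except Atp2a2 read below the array medians of 3.13 to 3.18. In iWAT Dio2, Ckmt1, Ckmt2 and Ryr1 read below the array medians of 3.65 to 3.73. Small effects at such low levels do not show an absence of change. Without KO mouse 2 the average passed for Prdm16 (0.34, adjusted p = 0.0134) and Ryr2 (-0.41, adjusted p = 0.0102). Ppara, the receptor that drives fatty acid oxidation genes, rose in eWAT by 0.49 (adjusted p = 0.0205) and had an effect of 0.56 in iWAT (adjusted p = 0.435). Over the 19 genes of the list the average rose for 2, Ppargc1b and Zfp516, and fell for 2, the creatine genes Gatm and Slc6a8. Slc6a8, the creatine transporter, had effects of -1.68 and -0.27, the largest difference of the list. Cidea, a lipid droplet protein enriched in beige fat, had effects of 0.13 and 1.02, an average of 0.58 (adjusted p = 0.0288) and a difference of -0.89 (95% interval -1.80 to 0.03), which passed without KO mouse 2 (-1.34, adjusted p = 0.0254).

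**Figure D4:**
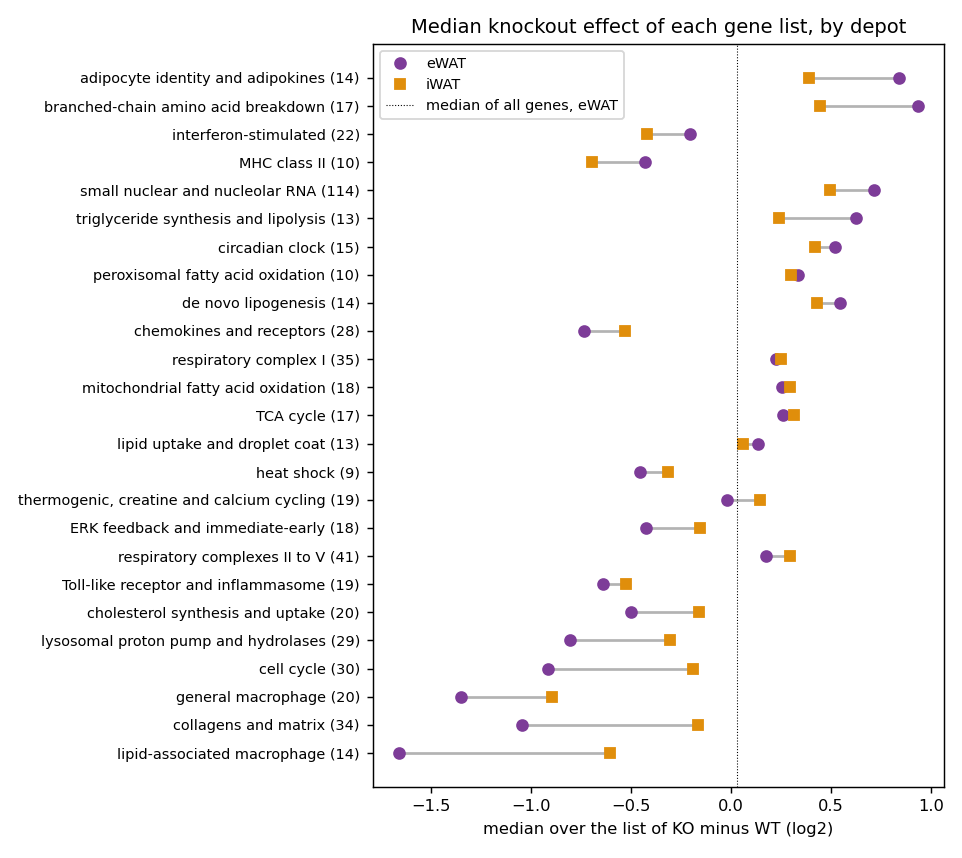
Median knockout effect (log2, horizontal axis) of each of 25 gene lists in eWAT (circles) and iWAT (squares), ordered by the median difference, with the number of genes measured in brackets. The lists of macrophages, matrix, cell cycle and lysosomes, at the bottom, have the eWAT circle to the left of the iWAT square, while the circles and squares of the mitochondrial lists lie close together, right of the median of all genes in eWAT (dotted).

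Of the macrophage genes, 13 of 20 in the general list and 12 of 14 in the lipid-associated list fell in eWAT. Over all genes 10.7% fell in eWAT, 7.99% fell on average and 2% were shared falls. No gene of any kind passed in iWAT, so the lack of calls there is not particular to macrophage genes. The general macrophage list had a median effect of -1.35 in eWAT and -0.89 in iWAT, with a fall on average for 11, of which 1 was shared by the rule above. Its difference was negative for 14 genes and positive for 6. Over the 4 mice with the least B cell marker signal in iWAT its medians were -1.80 in eWAT and -1.50 in iWAT. Those of the lipid-associated list were -2.03 and -0.93 there. The lipid-associated macrophage list had medians of -1.66 and -0.60, with a fall on average for 11, of which 3 were shared. No gene of either list passed the test of the difference with all 8 mice. In the lipid-associated list the difference was negative for 13 of 14 genes, with a median of -0.91 that stayed between -1.32 and -0.77 when each mouse was left out, and 11 of the 14 passed the test of the difference without KO mouse 2. The list mean was 8.29 to 8.43 in eWAT of WT mice and 5.94, 7.98, 6.72 and 6.13 in KO mice 1 to 4, against 6.11 to 7.06 in WT mice and 5.60 to 6.30 in KO mice of iWAT. In eWAT the means of KO mice 1, 3 and 4 lay far below those of the WT mice, and that of KO mouse 2 lay near the WT mice of eWAT. Trem2, a lipid-sensing receptor of these cells, read 8.50 to 8.63 in eWAT of WT mice and 3.6, 8.10, 5.85 and 4.31 in KO mice. In iWAT it read 5.26, 4.89, 4.87 and 6.68 in WT mice and 4.54, 4.57, 5.21 and 4.29 in KO mice, where the groups overlapped. Cd68, a lysosomal glycoprotein of macrophages, fell by 1.83 on average (adjusted p = 0.0274) with separation in both depots. Itgam and Emr1, which encode an integrin and an adhesion receptor on the macrophage surface, fell by 1.90 and 1.85 on average and were separated in eWAT only. Ccl2, the chemokine that recruits monocytes, had effects of -1.93 and -1.39 and fell by 1.66 on average (adjusted p = 0.0164).

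Lysosomal genes fell on average. The proton pump and hydrolase list had a median effect of -0.81 in eWAT and -0.30 in iWAT over 29 genes. The average fell for 18 (against 7.99% of all genes) and rose for none, and 7 were shared by the rule above (against 2%). The difference was negative for 28 of 29. Ctsk, the collagen-degrading cathepsin K, read 7.83, 8.35, 8.55 and 8.17 in eWAT of WT mice 1 to 4 and 4.08, 7.44, 5.09 and 4.38 in KO mice, against 4.56 to 6.17 in WT mice and 4.89 to 5.88 in KO mice of iWAT. The eWAT groups were separated and the iWAT groups lay inside each other, with a difference of -2.88 (95% interval -4.29 to -1.48, adjusted p = 0.139). The promoters of 21 list members were in the RefSeq table (GRCm38.p6), and 3 of them (14.3%) held the CLEAR core TCACGTGA, the palindromic site of the lysosomal regulator TFEB, within 250 bases before a start, against 0.907% of 27025 genes. They are Atp6v1a and Ctsa, with average effects of -0.82 each, and Ctsd, with -0.42. The 150 bases before the start of Atp6v1a, a pump subunit, and Ctsa, cathepsin A, are given 5′ to 3′ on the gene's strand, with the CLEAR core in capitals, and for Ctsa at the start with the match:
Atp6v1a, chr16:44139260-44139409, - strand: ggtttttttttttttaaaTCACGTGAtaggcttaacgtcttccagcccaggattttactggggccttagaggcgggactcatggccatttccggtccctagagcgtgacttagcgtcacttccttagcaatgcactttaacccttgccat
Ctsa, chr2:164833623-164833772, + strand: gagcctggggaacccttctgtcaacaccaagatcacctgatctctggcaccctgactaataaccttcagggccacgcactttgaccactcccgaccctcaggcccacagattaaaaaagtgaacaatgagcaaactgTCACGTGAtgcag
Atp6v1a had effects of -1.31 and -0.33, and Ctsa of -1.20 and -0.44, with differences of -0.99 and -0.76 (adjusted p = 0.238 and 0.117). The PU.1 site GAGGAAGT, of the myeloid transcription factor PU.1, was in the promoters of 3 of 24 macrophage genes with a sequence (12.5%), C1qc, Mmp12 and Spp1, against 2.79% of all genes. The match of a motif is a description of the sequence, and no binding was measured.

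Cell cycle genes fell in eWAT, with small effects in iWAT. The median effect over 30 genes was -0.92 in eWAT and -0.19 in iWAT. In eWAT 24 fell (against 10.7% of all genes), and the average fell for 16 (against 7.99%) and rose for none. The difference was negative for 29 of 30 genes, and for 14 of them (against 3.41% of all genes) the per-mouse differences were separated downwards. Its median of -0.58 stayed between -0.67 and -0.47 when each mouse was left out. Ccnb2 read 5.85, 5.73, 5.05 and 5.32 in eWAT of WT mice 1 to 4 and 3.12, 4.70, 3.40 and 3.20 in KO mice. In iWAT it read 4.94, 4.9, 4.04 and 4.05 in WT mice and 3.46, 4.70, 3.31 and 3.61 in KO mice. KO mouse 2 was the highest KO mouse in both depots, and in iWAT WT mice 1 and 2 and KO mouse 2, the arrays with the most B cell marker signal, were the highest. With the B cell marker mean of the iWAT array as a covariate the median difference of the list was -0.61, and over the 4 mice with the least B cell signal it was -0.53. Ccna2, cyclin A2, had the largest difference, -1.38 (95% interval -1.94 to -0.82, adjusted p = 0.107), with effects of -1.35 and 0.03, and Mki67, the proliferation marker Ki-67, had the largest average effect, -1.32 (adjusted p = 0.0392).

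Mitotic genes commonly carry CCAAT boxes, bound by NF-Y, and a CHR element near their starts. The promoters of 25 cell cycle genes were in the table. CCAAT, on either strand, was in 21 of them (84.0%) within 250 bases before a start, against 37.5% of 27025 genes, and the CHR element TTTGAA was in 8 (32%) against 18.3%. The median difference of the effects was -0.62 for the 21 genes with CCAAT and -0.15 for the few others, and -1.01 with and -0.44 without TTTGAA. Members with both motifs varied: Top2a, with 6 CCAAT and 2 TTTGAA matches, had a difference of 0.17, the only positive one of the list, and Cdc20 had -0.23. A link between motif and effect was not tested. The 150 bases before the starts of Ccnb2, the cell cycle gene with the smallest p for the difference, and Cdk1, the mitotic kinase that binds cyclin B2, are given 5′ to 3′ on the gene's strand, with CCAAT (or ATTGG, its reverse complement) and TTTGAA in capitals:
Ccnb2, chr9:70421555-70421704, - strand: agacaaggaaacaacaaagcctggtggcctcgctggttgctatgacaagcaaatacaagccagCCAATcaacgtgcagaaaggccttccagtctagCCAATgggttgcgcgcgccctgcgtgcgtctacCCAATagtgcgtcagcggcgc
Cdk1, chr10:69352913-69353062, - strand: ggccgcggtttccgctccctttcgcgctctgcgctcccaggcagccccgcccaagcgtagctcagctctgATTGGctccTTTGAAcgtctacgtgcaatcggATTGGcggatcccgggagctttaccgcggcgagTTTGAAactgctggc
Ccnb2 held 3 CCAAT boxes and no CHR element in this stretch, and Cdk1 held 2 of each, with no overlap. The TTTGAA match that places Ccnb2 among the 8 genes above lay farther out, 167 bases before the start. Cdk1 read 4.04, 4.32, 3.93 and 3.64 in eWAT of WT mice 1 to 4 and 2.62, 3.40, 2.46 and 2.60 in KO mice, and 2.87 to 3.38 and 2.86 to 3.34 in iWAT. The groups were separated in eWAT and overlapped in iWAT, and its difference was -1.15 (95% interval -1.81 to -0.49, adjusted p = 0.188). The ERR site TCAAGGTCA was in the promoters of 1 of 94 mitochondrial genes (1.06%), Atp5g3, against 0.422% of all genes, and the PPAR element in 0 of 29 adipocyte, triglyceride and lipid uptake genes, against 0.0407%.

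Extracellular matrix genes fell in eWAT and had smaller effects in iWAT. Over 34 genes of collagens and matrix the median effect was -1.04 in eWAT and -0.17 in iWAT. In eWAT 26 fell (against 10.7% of all genes), and the average fell for 19 (against 7.99%). Only 1 was shared by the rule above. The difference was negative for 31, with a median of -0.83 that stayed between -1.0 and -0.66 when each mouse was left out. Over the 4 mice with the least B cell signal in iWAT the median difference was -0.49. In those mice the median effect was -1.09 in eWAT and -0.45 in iWAT, so the iWAT median depended on the mice used. Lum, the collagen-binding proteoglycan lumican, read 7.82, 8.15, 7.83 and 7.91 in eWAT of WT mice 1 to 4 and 4.63, 7.19, 4.56 and 5.09 in KO mice, against 5.0 to 6.64 in WT mice and 5.57 to 6.43 in KO mice of iWAT. The eWAT groups were separated, with KO mouse 2 nearest to the WT mice, and the iWAT groups lay inside each other. Its difference was -2.38 (95% interval -3.88 to -0.87, adjusted p = 0.224). Collagen I had effects of -1.35 (Col1a1) and -1.17 (Col1a2) in eWAT and 0.22 and -0.03 in iWAT. Thbs1, the adhesive glycoprotein thrombospondin 1, was chosen after its values were seen because it went the other way: it read 8.64 to 9.63 in eWAT of WT mice and 9.58 to 9.96 in KO mice, and 7.87 to 8.96 in iWAT of WT mice and 6.35, 7.48, 6.84 and 8.0 in KO mice. The groups overlapped in each depot, but every KO mouse had a higher per-mouse difference than every WT mouse, and the difference was 1.90 (95% interval 1.19 to 2.61, adjusted p = 0.0957).

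**Figure D5:**
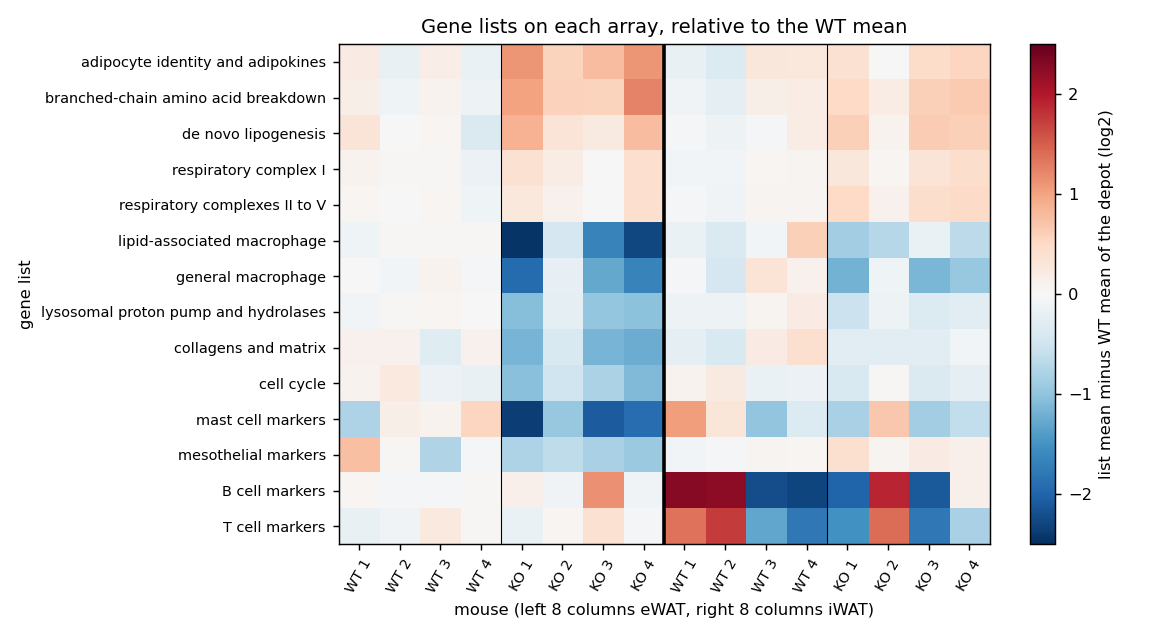
Mean of 14 gene lists on each array minus the WT mean of the same depot (log2, colour), for WT mice 1 to 4 and KO mice 1 to 4 in eWAT (left 8 columns) and iWAT (right 8 columns). In eWAT the macrophage, lysosome, matrix, cell cycle and mast cell lists are lower in KO mice 1, 3 and 4 than in KO mouse 2, and in iWAT B and T cell markers are high in WT mice 1 and 2 and KO mouse 2.

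Genes of cholesterol synthesis and uptake had a median effect of -0.50 in eWAT and -0.16 in iWAT over 20 genes, with a fall on average for 8, and the difference was negative for 18, with a median of -0.36. Insig1, the sterol sensor that retains the SREBP complex, had effects of opposite sign, -0.49 and 0.90, the largest difference of the list (-1.40, adjusted p = 0.189). Interferon-stimulated genes had medians of -0.21 and -0.42 over 22 genes, and 18 of 22 differences were positive, but the average fell for 1, Irf9. MHC class II genes had medians of -0.43 and -0.69, and none of 10 passed on average. Their iWAT means were highest in the 3 arrays with the most B cell signal, and the median difference of 0.27 was 0.10 with the B cell marker mean as a covariate. The circadian clock list had medians of 0.52 and 0.42 over 15 genes, with Npas2 at -1.08 and 0.42, the largest difference of the list. Toll-like receptor and inflammasome genes had medians of -0.64 and -0.52 over 19 genes, with a fall on average for 9. Their difference was negative for 15 of 19, with a median of -0.36 that stayed between -0.42 and -0.18 when each mouse was left out. Chemokines and receptors had medians of -0.74 and -0.53 over 28, with a fall for 9 and a rise for 1, Cxcl9. Peroxisomal fatty acid oxidation had medians of 0.34 and 0.30 over 10 genes, and lipid uptake and droplet coat genes 0.13 and 0.06 over 13. Heat shock genes had medians of -0.46 and -0.31 over 9 genes, and genes of ERK feedback and the immediate-early response -0.43 and -0.16 over 18. Small nuclear and nucleolar RNA genes had medians of 0.71 and 0.49 over 114 genes, and the average rose for 63.

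Median effects of the markers of several cell types also lay away from 0, in part with overlapping groups. The 5 mast cell markers had a median effect of -2.07 in eWAT and -0.33 in iWAT, and their mean was 4.49 to 5.78 in eWAT of WT mice and 2.88 to 4.3 in KO mice. The 6 mesothelial markers had a median of -0.85 in eWAT, where the mean was 4.57 to 6.07 in WT mice and 4.38 to 4.69 in KO mice, and 0.21 in iWAT, where the means were 2.63 to 3.09. Upk3b, a marker of mesothelium, had effects of -1.62 and 0.22. Markers of fat progenitors had medians of -0.70 and -0.26 over 6 genes, and endothelial markers 0.23 and -0.15 over 6, with all 6 differences positive. The B cell and T cell markers had medians of 0.27 and 0.00 in eWAT and -0.50 and -0.64 in iWAT, and no member passed any test. Their iWAT means overlapped between genotypes. Over the 4 mice with the least B cell marker signal in iWAT, the iWAT medians were 0.29 and -0.06. The part of these cell types in the gene lists above was not tested.

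Opposite effects with separation in both depots were rare. They were found for 9 of 24646 genes, chosen after their values were seen: Dcaf5, Zbtb10 and 5730416F02Rik were higher in KO mice in eWAT and lower in iWAT, and Mad2l1bp, Siglec15, Sox9, Tmem37, Tnp1 and Wdr20b were lower in eWAT and higher in iWAT. None passed the test of the difference, and Tmem37 had the smallest adjusted p among them. Tmem37, a calcium channel gamma-like subunit, read 3.11, 3.54, 3.49 and 3.23 in eWAT of WT mice 1 to 4 and 2.96, 2.79, 3.06 and 2.78 in KO mice, and 3.41, 3.16, 3.59 and 3.27 in iWAT of WT mice and 3.75, 3.67, 3.89 and 3.80 in KO mice. All of these values lie near the lower end of the scale, and the difference was -0.87 (95% interval -1.21 to -0.52, adjusted p = 0.105). Tnp1, a gene of sperm chromatin, read 4.77 in iWAT of KO mouse 4, the array with the most epididymis and testis marker signal, and 2.68 to 2.94 in the other KO mice.

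Some of the shared falls were larger in iWAT, and 3 of them were chosen after their values were seen. Mest, an adipocyte gene whose level follows the expansion of fat tissue, read 9.75, 10.04, 10.17 and 9.95 in eWAT of WT mice 1 to 4 and 9.19, 8.52, 7.67 and 8.0 in KO mice, and 8.77, 10.24, 9.73 and 10.55 in iWAT of WT mice and 6.86, 7.45, 6.78 and 8.54 in KO mice. The groups were separated in both depots, with effects of -1.64 and -2.41 and a difference of 0.78 (95% interval -0.45 to 2.00). Igfbp3, an insulin-like growth factor binding protein, had effects of -1.62 and -2.23, and Lipf, a lipase gene, -1.36 and -2.22. The intervals of both differences covered 0, at -0.19 to 1.40 and -0.04 to 1.77.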

How the data were processed

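RNA of eWAT and iWAT from 8 mice was hybridised to Affymetrix Mouse Gene 2.1 ST arrays, 1 array per mouse and depot. Each tissue has its own deposited table with 1 log2 value for a gene symbol and array, made by the authors, and the normalization is not given in the sources used here. Values of 840 symbols average several probe sets. Entries without a gene name (1 in eWAT, 2 in iWAT) were left out. The number of arrays limits the precision.

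Groups and mouse numbers came from the labels. With the mouse as the unit, limma 3.58.1 in R 4.3.3 was fitted to the eWAT values, the iWAT values, the mean of both per mouse, and eWAT minus iWAT per mouse, each WT against KO over all genes, with Benjamini-Hochberg adjustment and a threshold of 0.05. Deviations of the arrays of a mouse from their group means correlated at -0.0164 to 0.299, highest with the own number in 5 of 8 mice. Named genes were the targeted gene and its neighbour, white fat genes the study names, the 6 smallest p-values for the difference in each direction, the 6 largest shared rises and falls, and from each list the largest difference and average, leaving out small RNAs, predicted genes and olfactory receptors. The members and lists were chosen with earlier results of these data known. The fits were tested on simulated data. Alternatives covered blocks, scaling, filters, variance models, array weights, the methods' t-test and leaving out each mouse. Promoters came from RefSeq (GRCm38.p6). Values of some single genes are not reported here.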

Additional observations from a re-analysis of the deposited data

Results flagged for a closer look

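In 9 of 180 groups of 4 mice, over 45 named genes, the highest or lowest mouse lay far from the other 3 by Dixon's criterion, and chance gives about 1 in 20. None of the 9 was KO mouse 2. WT mouse 1 read 6.98 for C130050O18Rik in iWAT, where the other WT mice read 3.736 to 4.288. WT mouse 2 read 9.556 for Cfd in iWAT (others 10.46 to 10.642), 3.67 for Cdk15 in eWAT (others 3.586 to 3.589) and 7.232 for Cpe in eWAT (others 7.005 to 7.039). In iWAT, WT mouse 4, the array with the most skeletal muscle marker signal, read 3.92 for Ryr2 (others 3.515 to 3.532), 3.795 for Ppara (others 3.405 to 3.421) and 9.557 for Cxcl9 (others 9.036 to 9.085). WT mouse 3 read 6.924 for Rnf125 in eWAT (others 6.672 to 6.715), and KO mouse 4 read 8.131 for Ces1f in eWAT (others 7.294 to 7.363).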

How the results depend on the processing

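The count of genes whose effect differed between depots was 0 with all mice taken as units. It was 6 with no replicate block (all negative, among them Cdk15, Pcp4l1, Serpinb1c and Slc25a43), 6 with the mouse as a random block, 23 with the number shared by WT and KO mice as a block, 98 with each table divided by its pooled SD, and 2 by the methods' t-test after adjustment (2373 before it). The average count of 2854 became 4802 with no replicate block, 4462 with array weights, 0 with a trended and robust prior, and 2 by the t-test (6955 unadjusted). The eWAT count of 3758 became 38 by the t-test (6798 unadjusted), and the iWAT count of 0 became 1 (3167 unadjusted), and 1, Celsr2, with the number block. Numbers shared across genotypes do not pair animals here.

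Leaving out each mouse gave 0 to 401 genes for the difference, 2 to 5962 for the average, 1448 to 5429 in eWAT, 0 to 227 in iWAT and 909 to 2251 genes separated in both depots, against 771. The highest values came without KO mouse 2, and in iWAT only WT mouse 1 (3 genes) and KO mouse 4 (1 gene, Bmp3) also gave calls when left out. In 2 alternatives chosen after seeing the data, the iWAT B cell marker mean as a covariate gave 146 genes for the difference and 94 in iWAT, and the 4 mice with the least B cell signal (2 against 2) gave 13 for the difference, 4301 for the average, 916 in iWAT and 6782 separated. With fewer mice per group complete separation is easier by chance, so the separated counts are not comparable with 771. The causes of the other changes were not tested.

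Of 1480 values for 68 results on named genes under 22 alternatives, 1246 kept direction and side of the threshold, 102 lost the call and 86 gained it. A further 46 changed direction, none of them with a call in the main fit or the alternative, and 0 changed direction with a call. With 4 mice per group the smallest p of an exact permutation test is 0.0286.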
